A study of Homo sapiens with 18 samples.

Results

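APOA4 and 9 genes that lie around it on the long arm of human chromosome 11 were followed in 18 RNA-seq libraries. The 10 genes were taken as the rows of the deposited count table whose Ensembl identifiers belong to them, out of 61806 rows in all. All 10 passed the filter on low counts, which kept 19743 genes for testing. They comprise 4 apolipoprotein genes that stand side by side (APOA5, APOA4, APOC3 and APOA1) and 6 flanking genes (BUD13, ZPR1, SIK3, PAFAH1B2, SIDT2 and PCSK7). The question was whether differences between an APOA4-edited line and its parent are found near the edit.

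HepG2 is a human hepatoma cell line, labelled WT here, and APOA4-KO is a line made from HepG2 by CRISPR-Cas9 with 2 guide RNAs, grown from single colonies and chosen for mutations in both alleles of APOA4. Poly(A) RNA was sequenced from cells of each line outside hypoxia (0 h) and from cells kept for 24 h or 48 h in hypoxia (1% oxygen), with 3 libraries in each of the 6 groups. Cells were not sampled at 24 h or 48 h outside hypoxia, so that hypoxia and time in culture cannot be told apart, and the edited cells are 1 line, so that the edit and any other difference between the lines cannot be told apart. Nothing in the labels says that the 3 libraries of a group are separate cultures, and the p-values measure the spread between these libraries, which may be technical.

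Apolipoproteins are the protein part of the particles that carry lipids in blood. APOA1 is the main protein of high-density lipoprotein, APOA4 rides on chylomicrons and high-density lipoprotein, APOC3 slows the hydrolysis of triglycerides by lipoprotein lipase, and APOA5 favours it. The genes share control regions that nuclear receptors such as HNF4A bind in liver and intestine, and human APOA4 is known mainly as a product of the intestine.

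In the GENCODE 29 annotation of GRCh38, APOA4 (ENSG00000110244) lies at chr11:116820700-116823306 on the minus strand. APOC3 (ENSG00000110245, plus strand, chr11:116829706-116833072) begins 6.40 kb from the start site of APOA4, and APOA1 (ENSG00000118137, minus strand, chr11:116835751-116837950) begins 14.6 kb from it. APOA5 (ENSG00000110243, minus strand, chr11:116789367-116792420) begins 30.9 kb away on the other side, followed by ZPR1 (ENSG00000109917, minus strand) at 35.3 kb and BUD13 (ENSG00000137656, minus strand) at 50.3 kb. Beyond APOA1 come SIK3 (ENSG00000160584) at 275 kb, PAFAH1B2 (ENSG00000168092) at 321 kb, SIDT2 (ENSG00000149577) at 355 kb and PCSK7 (ENSG00000160613) at 409 kb. Of these distal genes, PAFAH1B2 and SIDT2 are read from the plus strand, SIK3 and PCSK7 from the minus strand.

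The guides and the sequence before APOA4 are shown because they place the edit among these genes. The capitals in the guides mark the 3 bases of the PAM, and those in the promoter mark the match of sgRNA1 and its PAM, which reads on the opposite strand.
sgRNA1: agtggtggctgttccgtgcgTGG
sgRNA2: ttggggaccgagacgagtctGGG
APOA4, 250 bases upstream: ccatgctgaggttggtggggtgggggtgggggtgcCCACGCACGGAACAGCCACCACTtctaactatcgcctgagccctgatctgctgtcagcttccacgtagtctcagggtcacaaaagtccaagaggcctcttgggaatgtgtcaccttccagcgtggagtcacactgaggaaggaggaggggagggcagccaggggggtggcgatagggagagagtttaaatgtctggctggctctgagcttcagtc
The methods state that the guides address exons 1 to 3 of APOA4. In the RefSeq promoter table of GRCh38.p14, sgRNA1 with its PAM matched 1 of 35116 promoters, that of APOA4, at chr11:116823497-116823519 on the plus strand. Its match lies 193 to 215 bases upstream of the RefSeq start site, outside the exons, and a cut 3 bases from the PAM would fall 209 bases upstream of that site. Neither guide matched any of 206694 GENCODE transcripts, and sgRNA2 matched no promoter. The site of sgRNA2 was not analysed here, since introns and the sequence between genes were not searched.

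Of the 10 genes, 8 have an entry in the promoter table (250 bases before to 50 bases after the start site), and APOC3 and APOA1 have none. The core letters of the hypoxia response element, searched as ACGTG on either strand, were in 5 of these 8 windows (BUD13, APOA5, APOA4, SIK3 and SIDT2) and in 21.4% of all 35116. In APOA4 the letters lie 154 to 150 bases upstream on the antisense strand, between the match of sgRNA1 and the start site. The receptor motif AGGTCA, which HNF4A and PPAR proteins share, was in the windows of APOA5 and SIK3 and in 13.8% of all, and the E-box CACGTG, which contains ACGTG, was in the same pair and in 7.26% of all. These matches are descriptions of the letters.

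Library totals ran from 76481820 to 91604947 counts, and since counts of 4, 8 and 12 were over-represented in every library, a count need not be a single read pair. Levels are given as CPM, for which counts were brought to the same library total with TMM factors, and as FPKM, which also divides by gene length, where genes are compared with each other. A gene was called at a Benjamini-Hochberg adjusted p under 0.05 in edgeR's quasi-likelihood test over all 19743 genes. All 12 hepatocyte and hepatoma markers were detected in every group, of both lines. That sum was 53404 to 53913, 70180 to 70934 and 60538 to 61020 CPM in HepG2 at 0 h, 24 h and 48 h and 64126 to 64865, 84085 to 86498 and 77580 to 80624 CPM in APOA4-KO. It moved with the line and with time as some of the 10 genes did, and its part in their values was not tested. Its genes APOB and HNF4A also stand in lists below. Of the markers of other cell types, CFTR (cholangiocyte), CD163 and CD3E (leukocyte), STAB2 (endothelial), COL3A1 (fibroblast) and FABP2, CDX2, SI and ALPI (enterocyte) stayed under 1 CPM in every library, and SI was at 0. The summed lists held 595 to 914 CPM for 4 cholangiocyte genes, 38.3 to 81.3 CPM for 5 leukocyte genes, 8.36 to 15.7 CPM for 4 endothelial genes, 104 to 163 CPM for 5 fibroblast genes and 386 to 556 CPM for 5 enterocyte genes, the last mostly VIL1. All libraries come from a hepatoma line or a line made from it, so these sums are RNA levels and are not read as other cell types. Fewer cells of a kind and less RNA per cell cannot be told apart in bulk libraries.

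The 12 genes of a hypoxia list gave a check of the treatment. In HepG2, 11 of 12 rose at 24 h and 12 of 12 at 48 h, against 11.4% and 13.1% of all tested genes, with medians of 0.95 and 1.56 on the log2 scale. In APOA4-KO, 12 of 12 rose at both times, against 21.5% and 23.9%, with medians of 1.69 and 2.06. Between the lines, 12 of 12 were higher in APOA4-KO already at 0 h (12.9% of all tested genes), 11 at 24 h (23.6%) and 10 at 48 h (23.5%). CA9, a carbonic anhydrase induced by HIF, rose by 4.08 ± 0.06 (log2, SE) at 24 h in HepG2 and by 2.98 ± 0.06 in APOA4-KO. At 48 h its rise was 2.99 ± 0.06 in HepG2 and 3.42 ± 0.06 in APOA4-KO. The smaller rise of CA9 in APOA4-KO at 24 h ran against most of the list. The line difference in the change to 24 h passed upward for 9 genes (16.8% of all tested) and downward for 2 (15.4%). Its median over the 12 was 0.59. To 48 h it passed upward for 8 (18.6%) and downward for 3 (17.8%), with a median of 0.30.

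APOA4 RNA was present in every library of both lines, and it differed between the lines mainly in hypoxia. At 0 h, the HepG2 libraries held 8.95, 9.67 and 8.46 CPM and the APOA4-KO libraries 8.35, 7.80 and 6.99 CPM. At 24 h, HepG2 held 19.8, 19.8 and 21.0 CPM and APOA4-KO 8.25, 7.51 and 8.04 CPM. At 48 h, the values were 18.9, 19.9 and 21.7 CPM in HepG2 and 7.65, 8.54 and 8.44 CPM in APOA4-KO. The lines nearly met at 0 h, where the highest APOA4-KO library was just under the lowest HepG2 library, and stood far apart in hypoxia. APOA4 was 1.17-fold lower in APOA4-KO at 0 h (log2 fold change -0.23 ± 0.08 SE, adjusted p = 0.040). It was 2.55-fold lower at 24 h (-1.35 ± 0.08, adjusted p = 6.6e-11) and 2.45-fold lower at 48 h (-1.29 ± 0.08, adjusted p = 9.0e-11). The call at 0 h was lost in 11 of 26 other settings. Among them were refits without HepG2 0 h replicate 1 or 2, HepG2 24 h replicate 2, or APOA4-KO 0 h replicate 2 or 3, where the adjusted p was 0.0515 to 0.185.

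The counts sum all 3 exons of APOA4, 551 to 1968 per library, so they show neither the presence nor the absence of an edit in the RNA, and the group names are those of the labels. AP006216.3, annotated on the opposite strand, shares 43.1% of the exon bases of APOA4 in GENCODE 29 and had no count in any library. Protein was not measured in these files. The paper reports that the edited line was checked by gel electrophoresis and sequencing. It also reports APOA4 protein levels in HepG2 and APOA4-KO during hypoxia, and describes an increase of the protein under hypoxia. By RT-qPCR, the paper lists APOA4 and APOA1 among the lipid transport genes influenced by the absence of APOA4.

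**Figure D1:**
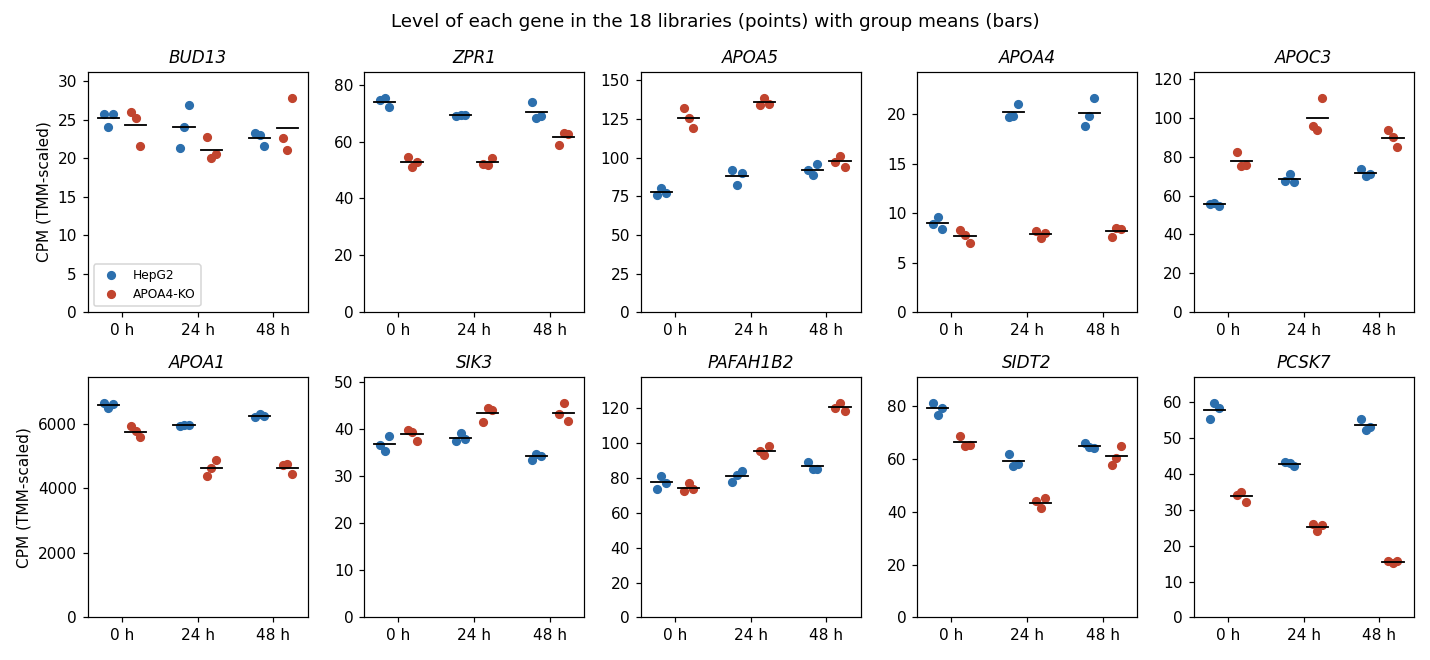
Level of each of the 10 genes in CPM (vertical axis, from 0) at 0 h, 24 h and 48 h in HepG2 (blue) and APOA4-KO (red); points are the 3 libraries of a group and bars their mean, with genes in their order along the chromosome. The APOA4 libraries of APOA4-KO sit between 6.99 and 8.54 CPM at all times, while those of HepG2 rise from at most 9.67 CPM to at least 18.9 CPM.

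In HepG2, APOA4 rose 2.24-fold from 0 h to 24 h and 2.23-fold to 48 h, a log2 fold change of 1.16 ± 0.08 each time, with adjusted p of 1.6e-09 and 2.9e-09. For the libraries labelled APOA4-KO, the 95% interval of the change ran from -0.13 to 0.21 at 24 h and from -0.08 to 0.26 at 48 h, around 0.04 (adjusted p = 0.74) and 0.09 (adjusted p = 0.39). Tested directly, the change differed between the lines by -1.12 ± 0.11 at 24 h and -1.07 ± 0.11 at 48 h, with adjusted p of 3.4e-07 and 4.0e-07. The rise seen in HepG2 lies outside the interval for APOA4-KO at both times.

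Of the other 3 apolipoprotein genes of the cluster, only APOA1 was called lower in APOA4-KO, as APOA4 was. APOA5 and APOC3 were higher in APOA4-KO at 0 h and 24 h, and APOA1 was lower at all 3 times by less than APOA4 was in hypoxia. For APOC3, which restrains lipoprotein lipase, the libraries at 0 h held 55.7, 56.4 and 54.6 CPM in HepG2 and 82.2, 75.1 and 75.6 CPM in APOA4-KO. In hypoxia the HepG2 libraries lay between 66.9 and 73.7 CPM, and the APOA4-KO libraries between 84.8 and 110.4 CPM. The lines did not overlap at any time. The excess was 1.40-fold at 0 h (0.48 ± 0.06, adjusted p = 1.5e-06), 1.46-fold at 24 h (0.54 ± 0.05, adjusted p = 8.8e-08) and 1.25-fold at 48 h (0.32 ± 0.05, adjusted p = 6.0e-05). Both lines raised APOC3 in hypoxia, by 0.30 ± 0.06 and 0.37 ± 0.05 (log2) in HepG2 and by 0.36 ± 0.05 and 0.21 ± 0.05 in APOA4-KO at 24 h and 48 h. The line difference in that rise was 0.06 (95% interval -0.10 to 0.22) at 24 h and -0.16 (-0.33 to 0.00) at 48 h, and neither passed the test. The value at 48 h was -0.33 and passed with library sizes left unscaled (adjusted p = 0.0013).

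APOA5, which promotes the lipolysis of triglyceride-rich particles, held 75.9, 80.3 and 76.9 CPM in HepG2 at 0 h and 132, 126 and 119 CPM in APOA4-KO. At 24 h it held 91.99, 82.5 and 90.2 CPM in HepG2 and 134, 139 and 135 CPM in APOA4-KO. At 48 h, the 2 lines overlapped, with 92.3, 88.9 and 95.7 CPM in HepG2 and 97.2, 101 and 94.2 CPM in APOA4-KO. It was 1.62-fold higher in APOA4-KO at 0 h (0.69 ± 0.05, adjusted p = 9.3e-10) and 1.54-fold higher at 24 h (0.62 ± 0.05, adjusted p = 1.0e-09). At 48 h the difference was 0.08 ± 0.05 (adjusted p = 0.16), and its sign turned with library sizes left unscaled (-0.07), while it passed with DESeq2 size factors (0.13, adjusted p = 0.021). The gene rose in HepG2 by 0.18 ± 0.05 at 24 h and 0.25 ± 0.05 at 48 h, with adjusted p of 0.0043 and 3.5e-04, the former lost without scaling (0.11, adjusted p = 0.068). The change of 0.11 ± 0.05 in APOA4-KO at 24 h (adjusted p = 0.051) passed in 14 of 18 refits without 1 library (adjusted p from 0.0074 to 0.15 over the 18), and a fall by 0.37 ± 0.05 followed at 48 h (adjusted p = 1.5e-06). The change to 48 h differed between the lines by -0.61 ± 0.06 (adjusted p = 3.3e-07).

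APOA1, the main structural protein of high-density lipoprotein, took 0.412% to 0.678% of all counts of a library. In HepG2 it held 6645, 6490.0 and 6596 CPM at 0 h, between 5927 and 5973 CPM at 24 h, and between 6196 and 6315 CPM at 48 h. In APOA4-KO it held 5931, 5769 and 5574 CPM at 0 h, and between 4382 and 4879.8 CPM in hypoxia. Every APOA4-KO library was below every HepG2 library of its time. APOA1 was 1.14-fold lower in APOA4-KO at 0 h (-0.19 ± 0.03, adjusted p = 6.2e-05), 1.28-fold lower at 24 h (-0.36 ± 0.03, adjusted p = 6.6e-09) and 1.35-fold lower at 48 h (-0.43 ± 0.03, adjusted p = 5.0e-10). The fall from 0 h was -0.31 ± 0.03 at both times in APOA4-KO. In HepG2 the change was -0.14 ± 0.03 at 24 h, with an adjusted p of 9.9e-04. At 48 h it was -0.07 ± 0.03 (adjusted p = 0.077; 0.049 without APOA4-KO 48 h replicate 3). The lines differed in the fall by -0.17 ± 0.04 at 24 h and -0.24 ± 0.04 at 48 h, with adjusted p of 0.0042 and 1.8e-04. A gene on the opposite strand, APOA1-AS, shares 8.64% of the exon bases of APOA1 and had 132 counts in all, of which 61 were in a single HepG2 library at 48 h.

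Compared per length, APOA1 stood far above the others of the cluster. In HepG2 at 0 h the FPKM was 5993 ± 70.8 (SD, n = 3) for APOA1, 65.2 ± 1.07 for APOC3, 38.4 ± 1.17 for APOA5 and 6.12 ± 0.417 for APOA4. That order held in all 6 groups, and the libraries of neighbours in it did not overlap. The FPKM ratio of APOA1 to APOA4 was 982 ± 73.9 in HepG2 at 0 h and 396 ± 12.4 and 418 ± 29.1 at 24 h and 48 h. In APOA4-KO it was 1006 ± 60.1 at 0 h, and 786 ± 63.4 and 761 ± 61.6 at the later times. The ratio of APOC3 to APOA4 was 10.7 ± 0.549 in HepG2 at 0 h against 17.5 ± 1.10 in APOA4-KO, and at 24 h 5.87 ± 0.347 against 21.8 ± 1.83. The balance of the 4 transcripts thus differed between the lines before and during hypoxia.

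**Figure D2:**
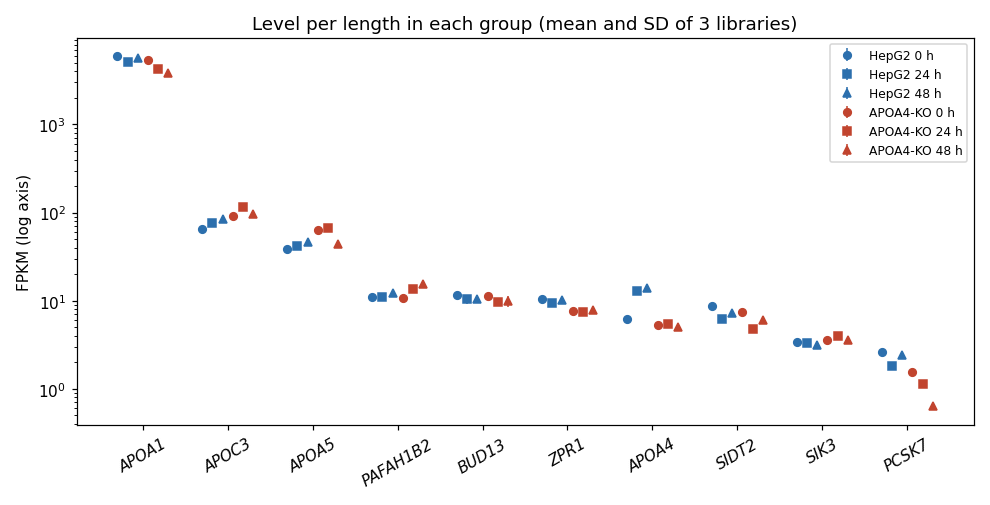
FPKM (log axis) of the 10 genes, ordered by their mean over the groups, in HepG2 (blue) and APOA4-KO (red) at 0 h (circles), 24 h (squares) and 48 h (triangles), as mean and SD of 3 libraries; most SD bars are smaller than the symbols. The means of APOA1 run from 3850.0 to 5993, and PCSK7 is lowest in every group, down to 0.630 in APOA4-KO at 48 h.

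Outside the cluster, PCSK7 differed most. It encodes a proprotein convertase that processes precursors in the secretory pathway. The libraries held 55.3, 59.8 and 58.3 CPM in HepG2 at 0 h and 34.2, 35.1 and 32.1 CPM in APOA4-KO. At 24 h the values were 43.2, 43.0 and 42.3 CPM against 26.1, 24.2 and 25.7 CPM. At 48 h they were 55.3, 52.2 and 53.1 CPM against 15.6, 15.1 and 15.7 CPM. HepG2 thus came back close to its starting level at 48 h, while APOA4-KO went on falling. PCSK7 was 1.71-fold lower in APOA4-KO at 0 h (-0.77 ± 0.04, adjusted p = 1.2e-10), 1.69-fold lower at 24 h (-0.76 ± 0.04, adjusted p = 5.0e-11) and 3.46-fold lower at 48 h (-1.79 ± 0.05, adjusted p = 2.4e-16). From 0 h it fell in both lines at 24 h, by 0.43 ± 0.04 and 0.42 ± 0.04, with a line difference of 0.02 (95% interval -0.12 to 0.15). At 48 h it had fallen by 1.13 ± 0.05 in APOA4-KO (adjusted p = 1.8e-13), against -0.11 ± 0.04 in HepG2 (adjusted p = 0.072), and the lines differed by -1.02 ± 0.06 (adjusted p = 2.7e-10). In the annotation, 19.7% of the exon bases of PCSK7 are shared with genes on the opposite strand, TAGLN and ENSG00000280143. Whether the counting used strand is not stated, so reads from those bases cannot be told apart.

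SIDT2 and ZPR1 were also lower in APOA4-KO. SIDT2 encodes a lysosomal membrane protein that takes part in nucleic acid uptake, and its group means were 79.0 ± 2.26, 59.1 ± 2.29 and 64.9 ± 1.01 CPM (SD) in HepG2 and 66.3 ± 2.02, 43.5 ± 1.99 and 61.0 ± 3.72 CPM in APOA4-KO at 0 h, 24 h and 48 h. The deficit was 1.19-fold at 0 h (-0.25 ± 0.05, adjusted p = 2.5e-04) and 1.36-fold at 24 h (-0.44 ± 0.05, adjusted p = 1.4e-07), while at 48 h the libraries overlapped (-0.09 ± 0.05, adjusted p = 0.12; 0.021 without APOA4-KO 48 h replicate 3). Unscaled, that difference was -0.24 and passed (adjusted p = 1.1e-04). SIDT2 fell in both lines at 24 h, by 0.42 ± 0.05 in HepG2 and 0.61 ± 0.05 in APOA4-KO. The line difference of -0.19 ± 0.06 (adjusted p = 0.033) was lost in 11 of 18 refits without 1 library, where the adjusted p was 0.061 to 0.14. The fall by 0.12 ± 0.05 at 48 h in APOA4-KO (adjusted p = 0.036) was lost in 13 of these refits, with an adjusted p of 0.081 to 0.35.

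ZPR1 encodes a zinc finger protein that binds translation elongation factor eEF1A, and BUD13 a subunit of a complex that helps the spliceosome retain and splice pre-mRNA. ZPR1 held 72.1 to 75.4 CPM in HepG2 and 51.1 to 54.7 CPM in APOA4-KO at 0 h. It was 1.40-fold lower in APOA4-KO at 0 h (-0.49 ± 0.04, adjusted p = 1.3e-08), 1.31-fold lower at 24 h (-0.39 ± 0.04, adjusted p = 6.9e-08) and 1.14-fold lower at 48 h (-0.20 ± 0.04, adjusted p = 2.9e-04), and the lines did not overlap at any time. It rose by 0.22 ± 0.04 in APOA4-KO at 48 h (adjusted p = 1.1e-04). BUD13, its neighbour, held 20.0 to 27.9 CPM over all 18 libraries and passed the test in none of the 9 comparisons. Its line difference had a 95% interval of -0.26 to 0.15 at 0 h, -0.40 to 0.01 at 24 h and -0.13 to 0.28 at 48 h. The value at 24 h, -0.19 ± 0.10 (adjusted p = 0.12), passed without HepG2 24 h replicate 1 (adjusted p = 0.037).

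SIK3, a salt-inducible kinase of the AMPK family, and PAFAH1B2, a catalytic subunit of a platelet-activating factor acetylhydrolase, went the other way. At 0 h, the libraries of the lines overlapped for both genes, and neither passed the test (0.08 ± 0.04 for SIK3 and -0.06 ± 0.04 for PAFAH1B2). In hypoxia both were higher in APOA4-KO. SIK3 was 1.14-fold higher at 24 h (0.18 ± 0.04, adjusted p = 0.0020) and 1.27-fold higher at 48 h (0.35 ± 0.04, adjusted p = 2.1e-06). PAFAH1B2 held 77.7, 81.8 and 83.9 CPM in HepG2 at 24 h against 95.3, 92.8 and 98.1 CPM in APOA4-KO, and 89.0, 85.3 and 85.3 CPM at 48 h against 120.2, 123 and 118 CPM. Its excess was 1.18-fold at 24 h (0.23 ± 0.04, adjusted p = 6.1e-05) and 1.39-fold at 48 h (0.48 ± 0.04, adjusted p = 6.1e-09). From 0 h to 48 h, PAFAH1B2 rose by 0.70 ± 0.04 in APOA4-KO and by 0.16 ± 0.04 in HepG2, a line difference of 0.53 ± 0.06 (adjusted p = 3.6e-07).

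Without TMM scaling, the median of all tested genes moved by -0.15 for the line difference at 48 h, by -0.16 for the change of APOA4-KO to 48 h and by -0.17 for the line difference in that change. On that scale the rises in APOA4-KO at 48 h of ZPR1 (0.06), APOC3 (0.05) and SIK3 (0.00) no longer passed the test, and the line differences in the change to 48 h of ZPR1 (0.12) and SIK3 (0.09) did not either, and the line difference of SIDT2 in the change to 24 h was lost (-0.14, adjusted p = 0.088). The fall of ZPR1 in HepG2 at 24 h (-0.17, adjusted p = 0.0011) and its line difference in that change (0.14, adjusted p = 0.049) passed on that scale. The calls over all tested genes turned downward with it, from 4641 higher and 5391 lower to 3601 and 6788 for the lines at 48 h, from 4727 and 5116 to 3499 and 6686 for APOA4-KO at 48 h, from 3665 and 3513 to 2492 and 5266 for the difference in that change, and from 2244 and 3606 to 1732 and 4875 for HepG2 at 24 h. The directions given above for APOA4, APOA1, APOC3, ZPR1, SIK3, PAFAH1B2 and PCSK7 between the lines at 48 h were the same with and without the scaling.

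Counted together, 7 of the 10 genes passed for the lines at 0 h, where 30.5% of all tested genes did. Of the 10, 2 were higher in APOA4-KO (12.9% of all tested genes) and 5 lower (17.6%). At 24 h 9 differed against 48.1%, 4 higher (23.6%) and 5 lower (24.6%). At 48 h 7 differed against 50.8%, 3 higher (23.5%) and 4 lower (27.3%). All 10 genes averaged over 500 counts, and of the 9839 tested genes that did, 49.9%, 78.5% and 76.8% differed at the 3 times, so that 7 of 10 at 48 h was below the share of genes of such depth. With a limit of 1 on the size of the log2 fold change added, the count was 0 at 0 h (4.31% of all), 1 at 24 h (7.77%; APOA4) and 2 at 48 h (13.6%; APOA4 and PCSK7). Their median log2 fold change was -0.12, -0.28 and -0.01 at the 3 times, beside -0.01, 0.01 and -0.04 over all tested genes. By gene, 5 differed at all 3 times (APOA4, APOA1, ZPR1 and PCSK7 lower, APOC3 higher), 4 at 2 times and BUD13 at none, where 20.7%, 22.7% and 34.6% of all tested genes and 37.3%, 36.3% and 5.66% of the 9839 did so. The libraries of the lines did not overlap for 7 genes at 0 h, 9 at 24 h and 7 at 48 h, beside 43.9%, 55.4% and 58% of all tested genes. The 4 apolipoprotein genes and the 6 flanking genes thus held differences in both directions.

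**Figure D3:**
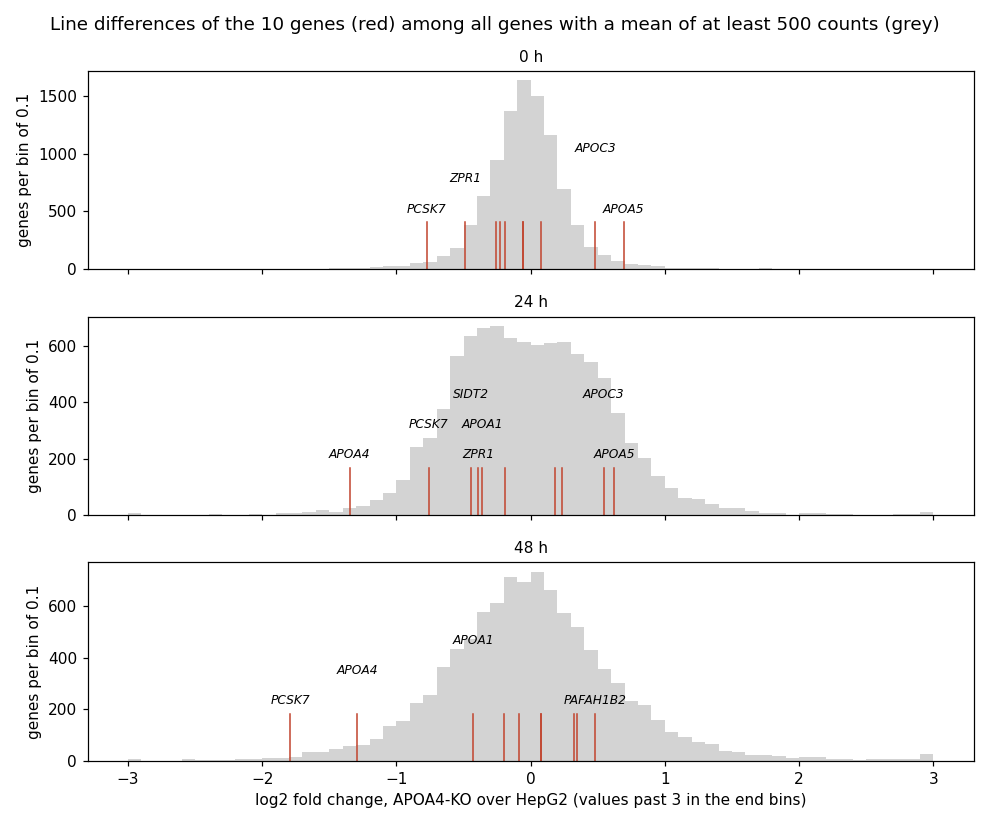
Number of genes (grey bars, vertical axis) by log2 fold change of APOA4-KO over HepG2 in bins of 0.1, for the 9839 genes averaging at least 500 counts, at 0 h, 24 h and 48 h, with the 10 genes as red lines and those farther from 0 named. At 0 h the 10 genes lie between -0.77 and 0.69, and in hypoxia APOA4 and PCSK7 move into the lower tail.

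Placed among the 9839 tested genes that averaged at least 500 counts, APOA4 held rank 2228 from the lowest log2 fold change at 0 h, rank 82 at 24 h and rank 259 at 48 h. PCSK7 held rank 190, rank 729 and rank 68. APOA5 was exceeded by 2.27% of these genes at 0 h and by 12.8% at 24 h, and APOC3 by 4.49% and 16.2%. APOA1 stayed well inside the distribution, with 26.5%, 27.8% and 23.6% of the genes below it.

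Along the chromosome, 22 tested genes start within 1 Mb of APOA4, of which 10 (45.5%) passed between the lines at 0 h. The count was 14 (63.6%) at 24 h and 12 (54.5%) at 48 h. Over all of chromosome 11 the shares were 39.4%, 55.2% and 55.4% of 1057 genes. Of the 12 genes in the window that are not among the 10, 3 differed at 0 h and 5 at both later times, and between 1 and 2 Mb from APOA4 the counts were 9, 12 and 12 of 25. Between 1 and 2 Mb, 0 were higher and 9 lower at 0 h, and 6 were higher and 6 lower at each later time. Many genes of the window are low: 14 average at least 500 counts, of which 10, 11 and 10 differed (71.4%, 78.6% and 71.4%), beside 49.9%, 78.5% and 76.8% of all such genes. Of such genes on chromosome 11, 58.6%, 84.3% and 81.4% differed. At 24 h and 48 h the shares of the window are near or below both of these backgrounds. For chromosome 11 as a whole, the median log2 fold change over 575 genes of that depth was -0.13, -0.29 and -0.17, the lowest, the second lowest and the lowest of the 22 autosomes. At 0 h chromosome 19 was practically level with it (-0.130 against -0.132), and at 24 h chromosome 19 was lowest with -0.39. The next at 48 h was chromosome 16 with -0.10.

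**Figure D4:**
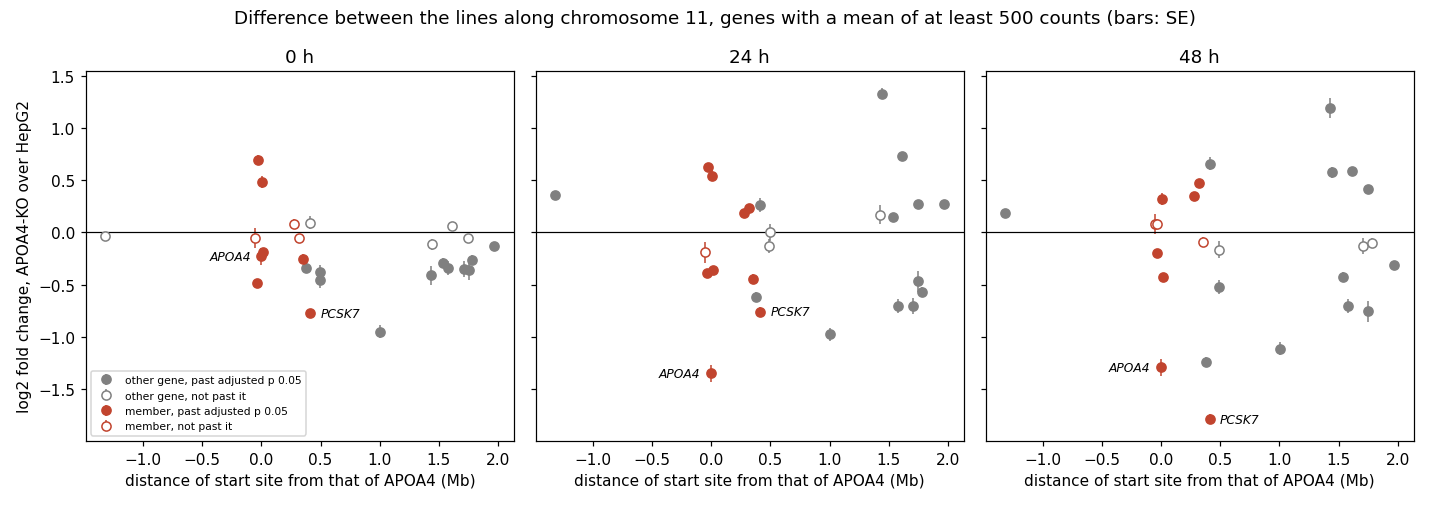
Log2 fold change of APOA4-KO over HepG2 (vertical axis, bars SE) against the distance in Mb of each gene's start site from that of APOA4, for genes within 2 Mb that average at least 500 counts, at 0 h, 24 h and 48 h; red marks the 10 genes and grey the others, and filled points passed an adjusted p of 0.05. Of the genes within 1 Mb that passed at 0 h, 2 were higher and 8 lower, and the lowest point at 0 h is a grey one at 1.01 Mb (FXYD2, -0.95).

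Of the genes in that window outside the 10, 6 passed both the adjusted p and a log2 fold change of 1 between the lines at some time. TAGLN, which encodes the actin-binding protein transgelin and shares 446 exon bases with PCSK7 on the other strand, was lower at all times, by -0.35 ± 0.05 at 0 h, -0.62 ± 0.05 at 24 h and -1.24 ± 0.05 at 48 h (adjusted p = 1.2e-13). Its group means were 69.3 ± 2.34, 68.8 ± 3.81 and 98.9 ± 3.54 CPM in HepG2 and 54.5 ± 0.661, 44.7 ± 2.27 and 41.8 ± 2.07 CPM in APOA4-KO. The HepG2 mean of TAGLN was highest at 48 h, unlike that of PCSK7. The other 5 had low or scattered counts. LINC02702 held 7 to 14 counts per library in HepG2 and 23 to 43 in APOA4-KO at 24 h, and DSCAML1 held 58 to 71 and 92 to 122 at 48 h. The pseudogene ENSG00000254851 held 29 to 85 and 13 to 18 counts at 24 h. ENSG00000280143, which overlaps PCSK7, held 73 to 220 and 18 to 31 counts at 24 h, but 11 to 391 in APOA4-KO at 0 h. APOA1-AS was at 0 in all 6 hypoxic APOA4-KO libraries and at 0 to 61 counts in the 6 hypoxic HepG2 libraries, 3 of which were also at 0, so no fold change is given.

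In the changes from 0 h, 6 of the 10 genes passed at 24 h in HepG2 (29.6% of all tested genes), with 3 higher (11.4%) and 3 lower (18.3%). At 48 h 5 passed (27.7%), 4 of them higher (13.1%) and 1 lower (14.6%). In APOA4-KO, 6 passed at 24 h (44.4%), 3 higher (21.5%) and 3 lower (22.8%). At 48 h 8 passed (49.9%), 4 higher (23.9%) and 4 lower (25.9%). Of the 9839 genes averaging over 500 counts, 51% and 49.6% passed in HepG2 and 74.7% and 76.7% in APOA4-KO. The changes to 24 h and to 48 h share the 0 h libraries of their line. The line difference in the change passed for 4 genes at 24 h (32.2%), 1 upward (16.8%) and 3 downward (15.4%), and for 7 at 48 h (36.4%), 3 upward (18.6%) and 4 downward (17.8%), beside 58.6% and 61.2% of the 9839. At 48 h the 7 were ZPR1, SIK3 and PAFAH1B2, which changed upward in APOA4-KO relative to HepG2, and APOA5, APOA4, APOA1 and PCSK7, which changed downward.

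**Figure D5:**
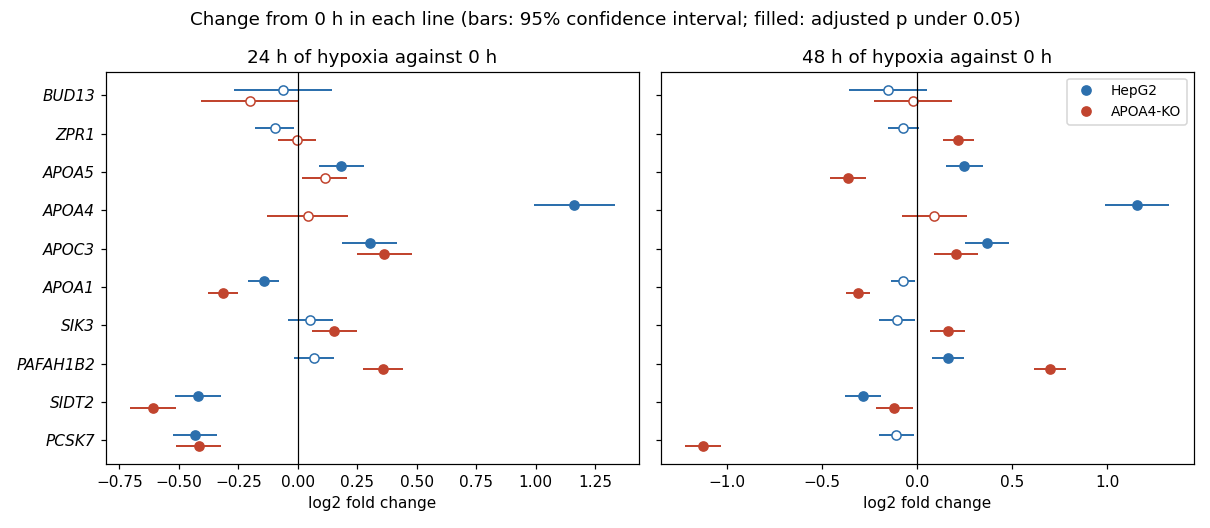
Log2 fold change from 0 h to 24 h (left) and to 48 h (right) of hypoxia for the 10 genes in HepG2 (blue) and APOA4-KO (red); bars are 95% confidence intervals and filled points passed an adjusted p of 0.05. APOA4 lies near 1.16 in HepG2 at both times and near 0 in APOA4-KO, and PCSK7 at 48 h lies at -1.13 in APOA4-KO and -0.11 in HepG2.

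The regulators of the cluster were taken from a list of 42 symbols written from general knowledge, of which 40 were tested. Between the lines, 10 of the 40 were higher in APOA4-KO at 0 h and 16 lower (12.9% and 17.6% of all tested genes). At 24 h, 15 were higher and 18 lower (23.6% and 24.6%). At 48 h, 24 were higher and 11 lower (23.5% and 27.3%). In either direction 26, 33 and 35 of the 40 differed. Of the 9839 genes averaging at least 500 counts, 49.9%, 78.5% and 76.8% did so. The median log2 fold change of the 40 was -0.07, -0.04 and 0.32. HNF4A, the nuclear receptor that binds the enhancer of the cluster, was higher by 0.16 ± 0.02 at 0 h, 0.35 ± 0.02 at 24 h and 0.17 ± 0.02 at 48 h, each past the test. PPARA, the receptor for fatty acids, was higher by 0.44 ± 0.05, 1.24 ± 0.05 and 0.94 ± 0.05, and its coactivator PPARGC1A by 0.63 ± 0.07, 1.28 ± 0.07 and 1.73 ± 0.07. RORA, a receptor that binds the promoters of several apolipoprotein genes, was higher by 0.56 ± 0.11, 2.04 ± 0.11 and 1.76 ± 0.11. NR1D1, the REV-ERBα repressor that binds the same elements, was higher at 48 h by 3.05 ± 0.07, with -0.07 ± 0.06 at 0 h. CEBPA, a liver-enriched factor, was lower, at -0.61 ± 0.04, -0.85 ± 0.04 and -1.46 ± 0.04. Binding of these factors was not measured.

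Other apolipoprotein and lipoprotein assembly genes, which lie elsewhere in the genome, form a list of 19, of which 17 were tested. In APOA4-KO 8 were higher and 2 lower at 0 h, 8 higher and 4 lower at 24 h, and 11 higher and 1 lower at 48 h, beside the shares of all tested genes given above. Their median difference was 0.24, 0.11 and 0.42. APOL1, an apolipoprotein of a high-density lipoprotein subclass, was higher by 1.79 ± 0.05, 1.79 ± 0.05 and 1.98 ± 0.05. MTTP, which loads lipid onto APOB, was higher by 0.91 ± 0.04, 1.14 ± 0.04 and 0.86 ± 0.04. APOB itself was higher by 0.16 ± 0.02, 1.07 ± 0.02 and 0.42 ± 0.02. Other members had lower group means in APOA4-KO at some times. APOE averaged 1819 ± 163 CPM (SD) in APOA4-KO at 0 h, against 2510 ± 108 CPM in HepG2. APOC1 averaged 115 ± 13.1 CPM in APOA4-KO at 24 h, against 181 ± 3.85 CPM in HepG2. At 0 h, the differences of APOC3 (0.48) and APOA5 (0.69) were smaller than those of APOL1 and MTTP. They were larger than the list median of 0.24 and than the difference of APOB.

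The genes whose log2 CPM followed that of APOA4 most closely over the 18 libraries, among the same 9839, were ORM1 (Pearson r = 0.95), ORM2 (0.91), ANXA3 (0.91), ENSG00000277117 (0.91) and BHLHA15 (0.91). None of them lies on chromosome 11. ORM1 and ORM2 encode nearly identical acute-phase proteins and their counts may share reads. ORM1 averaged 287, 343 and 351 CPM in HepG2 at 0 h, 24 h and 48 h, and 258, 253 and 264 CPM in APOA4-KO. BHLHA15, a transcription factor of secretory cells, averaged 15.3, 21.0 and 21.5 CPM in HepG2 and 15.4, 14.01 and 15.3 CPM in APOA4-KO. Both had their highest group means in hypoxic HepG2, as APOA4 did, a likeness that follows from choosing them by r. The libraries fall into groups, so r describes mainly the group means, and no p is given. Within the region, r with APOA4 was 0.62 for ZPR1, 0.54 for PCSK7 and 0.50 for APOA1, and negative for APOA5, APOC3, SIK3 and PAFAH1B2. For APOA1 the 5 most alike were PSME1 (0.99), PLEKHJ1 (0.99), BRMS1 (0.99), RPS19BP1 (0.99) and NDUFB7 (0.98), of which BRMS1 lies on chromosome 11.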

How the data were processed

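The authors trimmed reads of 150 bases with fastp 0.23.1, aligned them with HISAT2 2.1.0 to GRCh38.p13 of Ensembl release 109 and counted them per gene with featureCounts of subread 2.0.2. The submitters' processing notes also name StringTie. The labels describe second strands marked with dUTP while the methods name a kit without strand marking, so whether the libraries kept strand is not settled here, and the strand setting of the counting is not given in the sources used here. Raw counts per gene and FPKM were deposited for the same 18 libraries. The deposited FPKM followed count over length over library total and are not TMM-scaled.

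The main test was edgeR 4.0.16 in R 4.3.3 (filterByExpr, TMM, glmQLFit and glmQLFTest, 1 mean per group over all 18 libraries, Benjamini-Hochberg adjustment over 19743 genes), tested on simulated data. Log2 CPM for correlations used a prior count of 2. DESeq2 1.42.0, limma 3.58.1 on log2(FPKM + 1) and log2(FPKM + 0.1), other scalings, no filter, fits of the compared groups alone, a replicate block and fits without each library were alternatives. Places came from GENCODE 29, which holds 97.2% of the tested genes by identifier, and promoters from RefSeq. Guide sequences came from the study's supplementary text.

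The members, lists and tests were chosen with earlier results of these data known. Named were the 10 genes, genes within 1 Mb past both limits or overlapping the 10, the 5 genes most like APOA4 and APOA1, and examples from the lists that were picked after their values were seen. Columns of the authors' own comparisons were not used. The total counts were 76481820 to 91604947 per library.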

Additional observations from a re-analysis of the deposited data

Results flagged for a closer look

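The change from 0 h differed between APOA4-KO and HepG2 by edgeR's test of the difference itself in 11 instances among the 10 genes. For APOA4 the difference, taken as APOA4-KO minus HepG2 on the log2 scale, was -1.12 at 24 h and -1.07 at 48 h. PCSK7 changed by -1.02 more at 48 h, and APOA5 by -0.61. For APOA1 the values were -0.17 at 24 h and -0.24 at 48 h. SIDT2 differed by -0.19 at 24 h. In the other direction, PAFAH1B2 differed by 0.29 at 24 h and 0.53 at 48 h, ZPR1 by 0.29 at 48 h and SIK3 by 0.27 at 48 h. At those times 32.2% (24 h) and 36.4% (48 h) of all tested genes passed the same test. Groups of 3 libraries were not searched for outlying values.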

How the results depend on the processing

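Of 2340 log2 fold changes of the 10 genes recomputed under 26 alternatives, 2186 kept their direction and their side of the threshold, 62 lost the call, 45 gained it and 47 changed sign, 0 of these with an adjusted p under 0.05 in either fit. The count of the 10 genes that passed in APOA4-KO at 48 h against 0 h went from 8 to 5 with library size alone and with limma on log2(FPKM + 1) and log2(FPKM + 0.1), scales on which TMM is not applied. Without 1 library that count was 7 to 8. The other counts stayed within 1 of their value. The share of genes within 1 Mb of APOA4 that differed between the lines was 31.0% to 50% at 0 h, 48.3% to 70% at 24 h and 37.9% to 72.7% at 48 h over the settings, and 40.9% to 45.5%, 50% to 63.6% and 50% to 59.1% without 1 library. Sign changes with library size alone, limma on log2(FPKM + 1) and limma on log2(FPKM + 0.1), in that order, were -0.072, -0.073 and -0.080 for BUD13 between the lines at 48 h, -0.041, -0.042 and -0.047 for the line difference in its change to 48 h, -0.070, -0.068 and -0.069 for APOA5 between the lines at 48 h, and -0.068, -0.055 and -0.064 for APOA4 in APOA4-KO at 48 h. In the same order they were -0.021, -0.015 and -0.019 for SIK3 and -0.0038, -0.0028 and -0.0030 for PAFAH1B2 in HepG2 at 24 h, and -0.0078, -0.0040 and -0.0095 for the line difference of SIDT2 at 48 h. The line difference of PCSK7 in the change to 24 h was -0.024 with DESeq2 size factors and -0.024 with the DESeq2 Wald test. ZPR1 in APOA4-KO at 24 h was 0.013 with no filter and 0.019 with the compared groups alone, where BUD13 at 48 h was 0.0074. Without 1 library, the values whose sign changed ran from -0.11 to 0.020 at 0 h and from -0.049 to 0.16 at 48 h for BUD13 between the lines, from -0.15 to 0.018 for BUD13 in HepG2 at 24 h and from -0.15 to 0.059 in APOA4-KO at 48 h. In APOA4-KO at 24 h they ran from -0.0077 to 0.041 for ZPR1 and from -0.0039 to 0.12 for APOA4, and the line difference of PCSK7 at 24 h ran from -0.0022 to 0.060. Calls gained without 1 library also included the line difference of APOC3 in the change to 48 h without APOA4-KO 24 h replicate 3 (adjusted p = 0.045) and that of SIDT2 in 4 fits (0.018 to 0.044).

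The replicate numbers did not pair the libraries: over 45 pairs with the same number in different groups, the correlation of deviations from the group means was -0.14 to 0.05, and 0 of 18 libraries correlated best with their own number. With the replicate block, the calls over all genes between the lines went from 6015 to 5850 at 0 h, 9500 to 9375 at 24 h and 10032 to 9874 at 48 h. Among 90 results of the 10 genes, the block moved 1 across the threshold, APOA4 at 0 h.

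The cause of these changes was not tested. Depth limits the low antisense and noncoding genes near APOA4 more than the 10 genes, each of which had at least 551 counts in every library. The labels do not say whether the 3 libraries of a group are separate cultures, and 1 edited line was measured.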
